A study of Sparus aurata with 5 samples.

Results

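The occludin genes oclnl, oclnb and oclc were examined in the anterior intestine of gilthead seabream (Sparus aurata) juveniles. They are 3 of the 14 target genes of a real-time qPCR study, and were chosen by gene name, as every gene that the files call an occludin. The gene listed as oclc is written oclnc in the article. Expression was measured in 60 fish, 12 for each of 5 diets. LB-GREENboost was added at 0.5% in GB5 and at 1% in GB10, LB-GUThealth at 0.5% in GH5 and at 1% in GH10, and CT held neither additive. The additives replaced wheat meal, so its share was lower in the supplemented diets and fell with dose. Both additives contain a hydrolysed blend of the microalgae Arthrospira and Microchloropsis, in a larger proportion in LB-GREENboost. There were 3 tanks for each diet, but no tank is given for single fish. Fish were therefore the replicates, so that any difference between tanks would make the p-values too small. A cycle of cldn15, an epithelial claudin, was given for 59 of the 60 fish, with a mean of 24.3. For igm and cd4, genes of lymphocytes, it was given for all 60, with means of 25.1 and 28.9. The missing cldn15 value does not show absence, and these means do not give the share of each cell type.

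Occludin is a membrane protein of the tight junction, the seal between neighbouring epithelial cells that limits the passage of ions and solutes between them. It belongs to the MARVEL family of proteins, which span the membrane several times, and its tail in the cytoplasm binds the scaffold protein ZO-1. Claudins form the strands and pores of the junction. Occludin is known for regulating the junction, and in mice without it tight junction strands still form. Teleost fish carry several occludin genes, and oclnb and oclc are named as paralogs of that family. The gene oclnl is annotated in the files only as occludin-like. Its listed sequence belongs to a RefSeq gene without a name, LOC115572975, in the assembly fSpaAur1.1. The sequences listed for oclnb and oclc were not matched by accession, so that 1 of 3 was matched, and a RefSeq gene carries the symbol oclnb.

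The occludin ratios were computed with a list of reference cycles that differs from the list behind the claudins. Relative expression was deposited as a ratio to eef1a, the gene of translation elongation factor 1 alpha, and to the mean of the CT fish. The cycles of eef1a are given in 2 lists, headed EF1a and EF1a (2). With EF1a (2), the deposited ratio was recovered in 57 of 57 rows for oclnl, 60 of 60 for oclnb and 60 of 60 for oclc, within 0.0001 on the log2 scale. With EF1a it was recovered in 0 rows of each gene. For the 7 claudins, cd4, il10 and tlr9, EF1a gave every deposited ratio up to a constant for each gene, and for igm it gave 40 of 60. Both lists hold the same 60 values, of which 54 occur once. Of these 54 cycles, 15 stand under the same diet in both lists, 39 stand under another diet, and 1 stands in the same row.

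The highest eef1a cycles show how far the lists part. The highest cycle, 19.7, stands in row 10 of GB5 in EF1a (2) and in row 9 of CT in EF1a. The cycles 19.585 and 19.49 stand in rows 8 and 12 of CT in EF1a (2), and in rows 11 and 7 of GH10 in EF1a. A later EF1a (2) cycle raises the ratio of its row by construction. The oclnl ratios of these 3 rows of EF1a (2) are given below. The files do not settle whether the occludin cycles themselves follow the fish order of EF1a or that of EF1a (2). A row below is therefore a place in the occludin blocks, and its diet is the column it stands in. Raw cycles and differences between occludins of the same row, which use no reference, are given beside the ratios. They remove the reference, but not the doubt about the diet of a row. Comparisons within a row also assume that it is the same fish in all 3 occludin blocks, which was not tested. Every comparison of diets below, with or without a reference, assumes that the column gives the right diet.

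**Figure D1:**
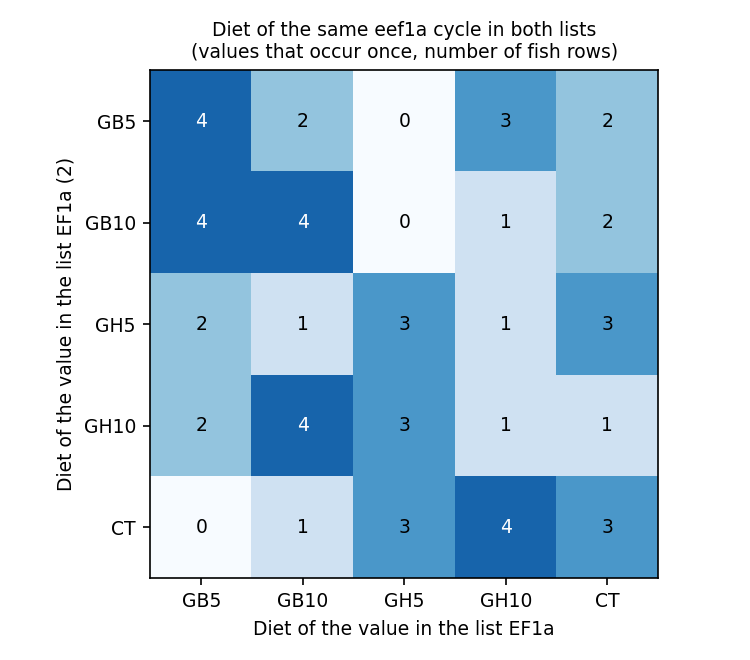
Each cell counts the eef1a cycles that occur once in the lists, by the diet they stand under in EF1a (2) (vertical axis) and in EF1a (horizontal axis). The diagonal holds 15 of the 54 cycles, and for CT it holds 3, against 4 that stand under GH10 in EF1a.

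The 3 occludins differed in cycle, and oclc came earliest. The mean cycle over all fish was 24.2 ± 0.415 for oclc (SD, n = 60), 25.7 ± 0.578 for oclnl (n = 59) and 26.5 ± 0.767 for oclnb (n = 60). For 1 primer pair, an earlier cycle means more template, by a factor of 2 for each cycle if the template doubles. Between genes the cycle also depends on the efficiency of each primer pair, which the article reports as checked but which was not compared here. It depends as well on the cDNA in each reaction. For this the article gives a range, without the amount used for each gene. Within rows, oclnl was later than oclc by 1.50 ± 0.079 cycles (SE, n = 59), with the same sign in 58 rows. The gene oclnb was later than oclc by 2.31 ± 0.122 cycles (SE, n = 60), in 60 of 60 rows. It was later than oclnl by 0.81 ± 0.133 cycles (SE, n = 59), in 45 rows, and earlier in 13. Each of these 3 differences had p = 1e-05 in a two-sided sign-flip permutation test, the smallest value that 100000 resamples can give.

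If the template doubled in each cycle for every primer pair and reactions held equal cDNA, oclc template would be 2.83-fold that of oclnl. On the same terms, oclc template would be 4.95-fold that of oclnb, and oclnl template 1.75-fold that of oclnb. These factors were not tested. The order oclc, oclnl, oclnb held within 44 of the 59 rows with all 3 cycles, and in another 13 oclnb came before oclnl. By diet it held in 6 of 11 rows of GB5, 8 of 12 of GB10, 10 of 12 of GH5, 9 of 12 of GH10 and 11 of 12 of CT. The order of oclc against the other occludins was thus nearly constant over rows, and that of oclnl and oclnb was not.

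**Figure D2:**
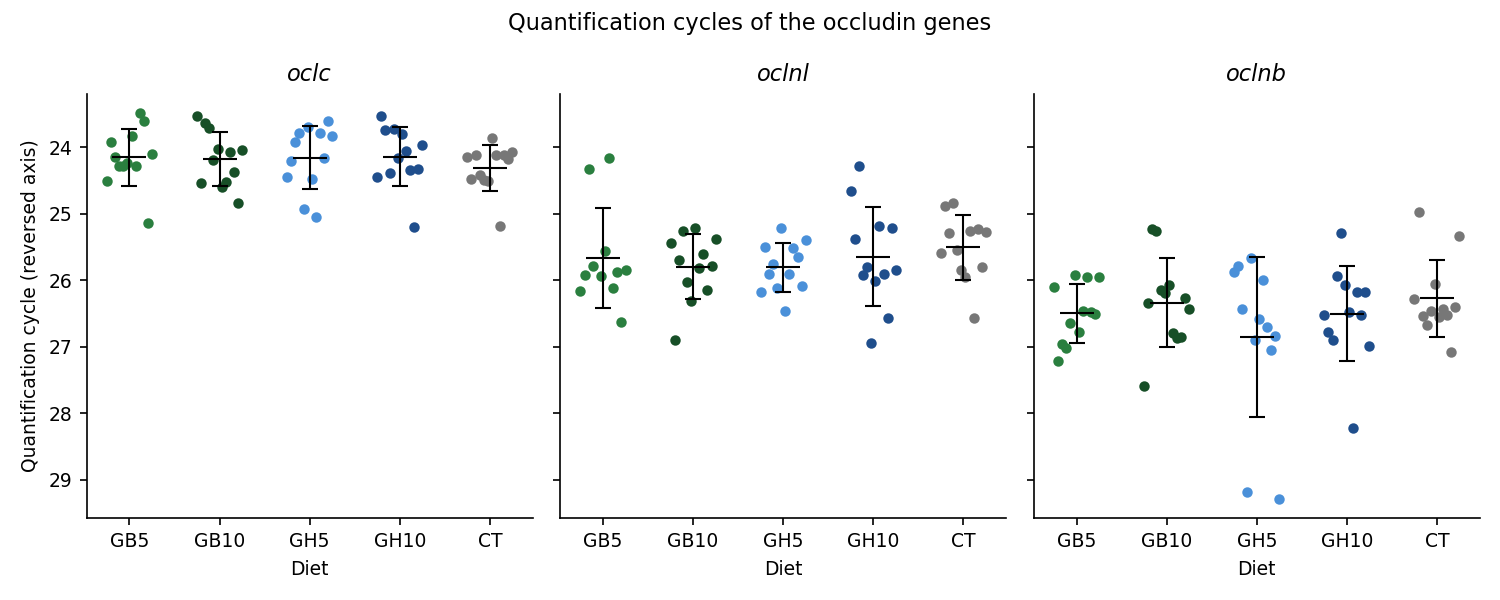
Quantification cycle of each fish (points) by diet for oclc, oclnl and oclnb, on a reversed axis so that earlier cycles are higher, with the mean and SD of each diet in black. Most oclc points lie above those of the other genes, and 2 rows of GH5 lie lowest for oclnb.

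The raw cycles of the diets overlapped for every occludin. For oclc, the lowest, median and highest cycles were 23.5, 24.2 and 25.1 in GB5 and 23.5, 24.1 and 24.8 in GB10. They were 23.6, 24.0 and 25.0 in GH5, 23.5, 24.1 and 25.2 in GH10, and 23.9, 24.2 and 25.2 in CT. No diet stood apart, and the 5 diet means lay between 24.1 and 24.3.

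For oclnl, the lowest, median and highest cycles were 24.2, 25.9 and 26.6 in GB5 (n = 11) and 25.2, 25.7 and 26.9 in GB10. They were 25.2, 25.8 and 26.5 in GH5, 24.3, 25.8 and 26.9 in GH10, and 24.8, 25.4 and 26.6 in CT. The CT median was the lowest of the 5, and the lowest single cycles were in GB5 and GH10. For oclnb, they were 25.9, 26.5 and 27.2 in GB5, 25.2, 26.3 and 27.6 in GB10, and 25.7, 26.6 and 29.3 in GH5. In GH10 they were 25.3, 26.5 and 28.2, and in CT 25.0, 26.4 and 27.1. The 3 latest oclnb cycles were in GH5 and GH10, and the diet medians of oclnb lay between 26.3 and 26.6.

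In raw cycles, none of the 3 occludins passed a test between diets. The cycles of the 4 supplemented diets pooled minus CT differed by 0.23 ± 0.186 for oclnl (SE, permutation p = 0.232), 0.28 ± 0.247 for oclnb (permutation p = 0.265) and -0.15 ± 0.133 for oclc (permutation p = 0.253). A positive difference means later cycles in the supplemented fish. Over the 5 diets, the permutation p of the F statistic was 0.709 for oclnl, 0.391 for oclnb and 0.863 for oclc. Over all 14 target genes, 0% passed the unadjusted permutation threshold of 0.05 in raw cycles, in the pooled comparison as in that of the 5 diets. The reference cycles of EF1a (2) differed between supplemented fish and CT by -0.22 ± 0.124 cycles (SE, permutation p = 0.0813), and those of EF1a by -0.055 ± 0.127 cycles (SE, permutation p = 0.666).

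Relative expression of oclnl was lower in the supplemented fish than in CT at the unadjusted threshold. The lowest, median and highest ratios were 0.353, 0.535 and 1.20 in GB5 (n = 9), 0.193, 0.800 and 1.22 in GB10, 0.404, 0.684 and 0.830 in GH5, and 0.178, 0.720 and 1.47 in GH10, against 0.408, 0.863 and 1.75 in CT (n = 12 in each diet but GB5). The ratios of all 12 GH5 fish lay below the CT median, and 8 of 9 did in GB5, 6 of 12 in GB10 and 7 of 12 in GH10. Of the 45 supplemented fish with a ratio, 6 lay below the lowest CT fish and 0 above the highest. The groups overlapped up to 1.47, the highest of these supplemented ratios. Rows 4, 8 and 12 of CT, at 1.75, 1.71 and 1.59, lay above it. The GB5 fish in rows 3 and 8 have a cycle but no deposited ratio. Recomputed with EF1a (2), their ratios were 2.07 and 2.57, above the highest CT fish. The mean ratio of oclnl in fish fed GB5 was 0.601 ± 0.241, with 0.764 ± 0.346 for GB10, 0.643 ± 0.155 for GH5 and 0.754 ± 0.369 for GH10, against 1.00 ± 0.459 for CT (SD).

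Pooled, oclnl differed from CT by -0.52 ± 0.215 on the log2 scale (SE, permutation p = 0.0190), a factor of 0.699 with a 95% interval of 0.518 to 0.942. Of the 14 target genes, 7.14% passed this test, which is 1 gene, and it was oclnl. Adjusted over the 14 genes by Benjamini-Hochberg, its p was 0.266. Between the 5 diets, the permutation p of oclnl was 0.194 (0.544 adjusted over the 14 genes). That test was likewise passed by 7.14% of the genes, and by 0 of the occludins.

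The call of oclnl was lost with another reference, and when 1 of 3 CT rows was left out. Without row 4, 8 or 12 of CT the difference was -0.43, -0.43 or -0.44 (permutation p = 0.0562, 0.0547 or 0.0502), and without any other single fish the permutation p stayed under 0.05, in 54 of 57 cases. The oclnl ratios of these rows were 1.75, 1.71 and 1.59, the highest of CT, their EF1a (2) cycles were 19.2, 19.585 and 19.49, and their EF1a cycles 18.15, 18.9 and 19.36. With EF1a as the reference, row by row, the difference was -0.34 (permutation p = 0.0977), and with the mean cycle of the other target genes it was -0.37 (permutation p = 0.124). Both settings assume that a row of the occludin blocks is the same fish as that row of EF1a and of the other genes. The authors left out 2 oclnl values of GB5, of rows 3 and 8, whose cycles of 24.3 and 24.2 are deposited. With them the difference was -0.44 ± 0.238 (SE, permutation p = 0.0715), and the GB5 mean was 0.913 ± 0.736 (SD, n = 11).

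**Figure D3:**
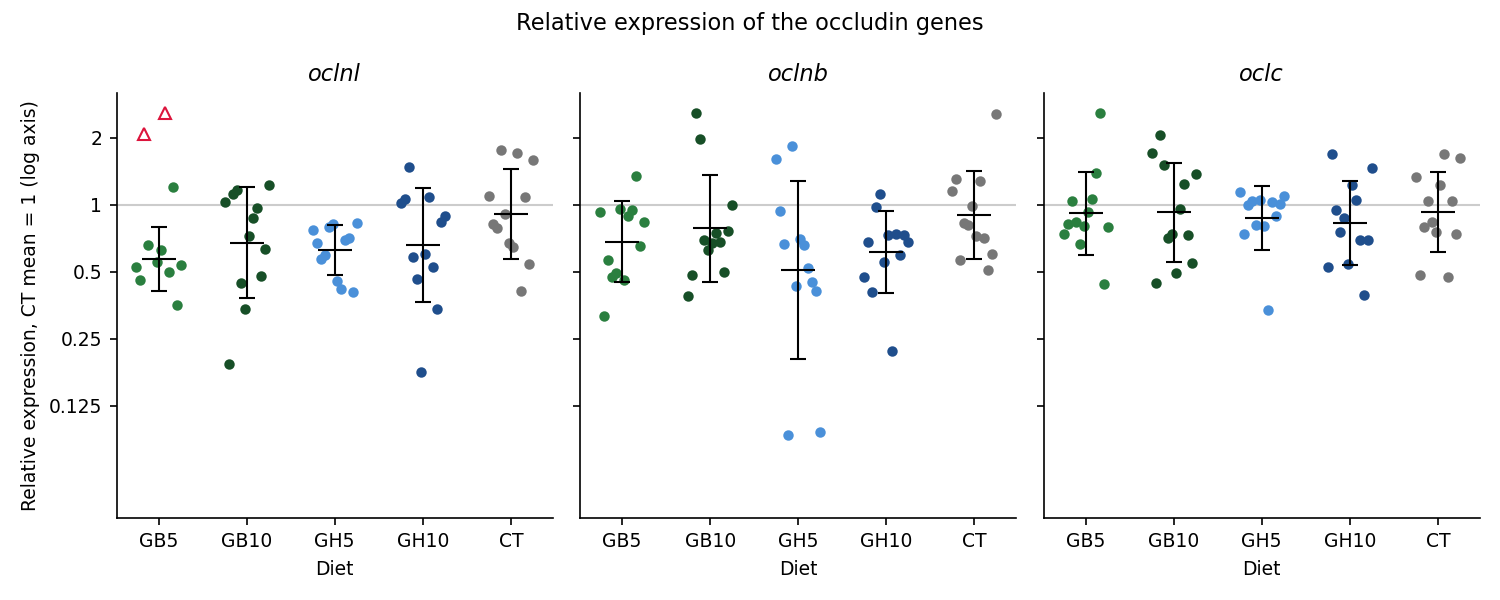
Relative expression of each fish (points) by diet for oclnl, oclnb and oclc, on a log axis where the CT mean is 1, with the mean and SD of log2 values in black. The red triangles are the 2 GB5 fish without a deposited oclnl ratio, recomputed from their cycles, and they lie above the highest CT fish at 1.75.

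For oclnb, relative expression passed neither the test over the 5 diets nor the pooled comparison. The lowest, median and highest ratios were 0.317, 0.741 and 1.34 in GB5, 0.390, 0.686 and 2.58 in GB10, 0.0926, 0.587 and 1.83 in GH5, and 0.221, 0.678 and 1.11 in GH10, against 0.508, 0.817 and 2.55 in CT (n = 12 each). Below the lowest CT fish lay 15 of the 48 supplemented fish, 1 lay above the highest CT fish, and 34 were below the CT median. Pooled, the difference from CT was -0.49 ± 0.274 on the log2 scale (SE, permutation p = 0.0742, 0.373 adjusted over the 14 genes). It is a factor of 0.710 with a 95% interval of 0.486 to 1.04. On ranks in place of log2 ratios, the permutation p was 0.0496, and without row 3 of GB10 or row 10 of CT it was 0.0451 or 0.0494. Between the 5 diets the permutation p was 0.161 (0.544 adjusted over the 14 genes).

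A pair of rows set the spread of oclnb in GH5. Rows 4 and 12 of GH5 had oclnb cycles of 29.2 and 29.3, and ratios of 0.0926 and 0.0952. In the same rows oclnl had cycles of 25.8 and 25.4 and oclc 23.8 and 23.8, close to the GH5 medians of 25.8 and 24.0. Of the occludins, only oclnb was late in these rows. The next latest oclnb cycle was 28.2, in row 8 of GH10. Leaving out rows 4 and 12 was chosen after seeing the data. The SD of log2 values in GH5 was 0.761 without them and 1.33 with them, and the GH5 mean was 0.820 ± 0.501 (SD, n = 10) without them and 0.699 ± 0.534 (SD, n = 12) with them, where CT was 1.00 ± 0.558 (SD, n = 12). The pooled difference was then -0.37 ± 0.220 (SE, permutation p = 0.0941).

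For oclc, no difference in relative expression between diets was detected. The lowest, median and highest ratios were 0.441, 0.826 and 2.58 in GB5, 0.444, 0.844 and 2.05 in GB10, 0.335, 1.00 and 1.14 in GH5, and 0.393, 0.809 and 1.69 in GH10, against 0.471, 0.935 and 1.68 in CT (n = 12 each). Below the lowest CT fish lay 4 of 48 supplemented fish, and 4 above the highest. The pooled difference from CT was -0.07 ± 0.195 on the log2 scale (SE, permutation p = 0.738, 0.960 adjusted over the 14 genes), a factor of 0.955 with a 95% interval of 0.729 to 1.25. Between the 5 diets the permutation p was 0.964. The mean ratio of oclc in fish fed GB5 was 1.01 ± 0.547, with 1.04 ± 0.526 for GB10, 0.909 ± 0.221 for GH5 and 0.903 ± 0.392 for GH10, against 1.00 ± 0.400 for CT (SD, n = 12 each).

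On the log2 scale the CT mean was the highest of the 5 diets for all 3 occludins. The lowest was GB5 for oclnl, GH5 for oclnb and GH10 for oclc. For oclc the CT mean, -0.111, was close to that of GB10, -0.114. On the linear ratio, the oclc means of GB10 (1.04) and GB5 (1.01) lay above CT (1.00). With EF1a, the log2 difference of oclc from CT was 0.05 in GB5, 0.05 in GB10, 0.32 in GH10 and -0.03 in GH5. The mean oclc cycle was latest in CT, at 24.3. With the GB5 cycles that have no ratio, the oclnl mean of GB5 came right after CT and GH5 was lowest, and without rows 4 and 12 of GH5 the lowest oclnb mean was that of GH10. Of the 30 differences between pairs of diets, 2 had an unadjusted permutation p under 0.05, beside 5.71% of the 140 over all genes. These were GB5 minus CT for oclnl (-0.67 ± 0.298 SE, permutation p = 0.0276) and GH5 minus CT for oclnb (-0.82 ± 0.345 SE, permutation p = 0.0199). Adjusted over the 10 pairs of each gene, their p was 0.174 and 0.133, and 0 of the 30 pairs were under 0.05. With all deposited cycles GB5 minus CT of oclnl was -0.31 ± 0.314 (SE, permutation p = 0.332). Without rows 4 and 12 of GH5, GH5 minus CT of oclnb was -0.33 ± 0.294 (SE, permutation p = 0.262). No neighbours in the order of diets differed beyond their spread.

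The functional ingredient, its dose and their interaction were compared in the 4 supplemented diets. None of the 3 occludins passed any of these tests, beside 7.14% of the 14 genes for ingredient, 0% for dose and 7.14% for interaction. The ingredient difference, LB-GREENboost minus LB-GUThealth, was 0.39 ± 0.256 for oclnb on the log2 scale (SE, permutation p = 0.136), 0.11 ± 0.180 for oclc (permutation p = 0.537) and -0.05 ± 0.204 for oclnl (permutation p = 0.804). The oclnb ingredient difference was 0.15 (permutation p = 0.487) without rows 4 and 12 of GH5, and 0.00095 (permutation p = 0.996) without the 4 rows far from their diet median. The dose difference, 1% minus 0.5%, was 0.23 for oclnb (permutation p = 0.376), 0.16 for oclnl (permutation p = 0.436) and -0.03 for oclc (permutation p = 0.867). For the interaction the permutation p was 0.681 for oclnl, 0.903 for oclnb and 0.810 for oclc. At a matched dose of 0.5%, GB5 minus GH5 of oclnb was 0.42 with a 95% interval of -0.27 to 1.11, so that a difference of up to 1.11 on the log2 scale could have been missed. At 1%, GB10 minus GH10 of oclnb was 0.36 with an interval of -0.33 to 1.05.

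Each difference from CT was split into the part from the cycles of the occludin and the part from EF1a (2). For oclnl the pooled difference of -0.52 held -0.29 from its own cycles and -0.23 from the reference, which is 43.7% of the whole. For oclnb the difference of -0.49 held -0.28 from its cycles and -0.22 from the reference, or 44.3%. For oclc the parts were opposite, with 0.15 from its cycles and -0.22 from the reference. The reference part was below 0 in each of the 4 diets, and it is shared by the genes, apart from the GB5 fish without an oclnl ratio.

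The split differed between diets. The part of oclnl from its own cycles was -0.48 for GB5, -0.29 for GB10, -0.30 for GH5 and -0.14 for GH10. The GB5 value rests on the 9 fish with a ratio, and over all 11 oclnl cycles of GB5 it was -0.16, with -0.15 from the reference. In GH10 the reference part, -0.33, was the larger, and with EF1a the oclnl difference of GH10 from CT was 0.02, where with EF1a (2) it was -0.46. For oclnb in GH10 it was -0.08 with EF1a and -0.56 with EF1a (2). For oclc in GH10 it was 0.32 with EF1a and -0.16 with EF1a (2). GH10 was thus the diet where the choice of list moved the occludins most, by 0.48 on the log2 scale. This shift comes only from the eef1a cycles of GH10 and CT in the 2 lists, so it is the same for each gene by construction.

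**Figure D4:**
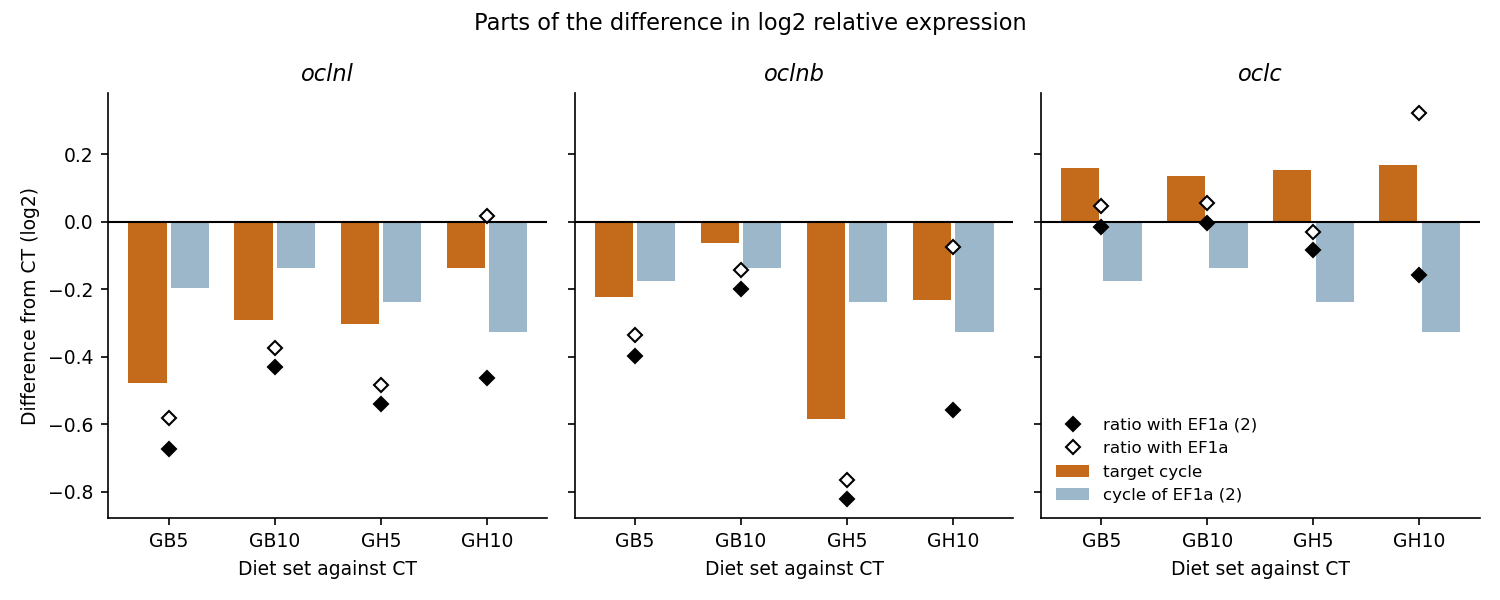
Difference of each supplemented diet from CT on the log2 scale (vertical axis) for oclnl, oclnb and oclc, with bars for the part from the occludin's own cycles and the part from EF1a (2), filled diamonds for their sum and open diamonds for the ratio with EF1a. The open and filled diamonds lie farthest apart in GH10.

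Differences in cycles between occludins of the same row use no reference gene, but assume the same fish in each block. The oclnl minus oclc difference averaged 1.53 ± 0.817 in GB5 (SD, n = 11), 1.62 ± 0.524 in GB10, 1.65 ± 0.433 in GH5 and 1.50 ± 0.728 in GH10, against 1.20 ± 0.466 in CT (SD, n = 12 each). Less oclnl relative to oclc gives a larger value, and all 4 supplemented means were above CT. Pooled, the difference of supplemented fish from CT was 0.38 ± 0.192 cycles (SE, permutation p = 0.0514), with a 95% interval of -0.004 to 0.77. This p moved under 0.05 on ranks (0.0141), when 3 rows far from their diet median were left out (0.00332), and when only rows with a deposited oclnl ratio were used (0.0112), the last chosen after seeing the data. The rows left out as far from the median were 3 and 8 of GB5 and 7 of CT. Row 8 had the lowest value of GB5, -0.11, and row 7 the highest of CT, 2.095. Leaving out each of the 3 rows raised the difference from CT. The setting with deposited oclnl ratios leaves out the same 2 rows of GB5, so it is not separate from the one before.

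The other pairs of genes gave larger p-values. For oclnb minus oclc the means were 2.35 for GB5, 2.16 for GB10, 2.70 for GH5 and 2.36 for GH10, against 1.96 for CT, and the pooled difference from CT was 0.43 ± 0.303 cycles (SE, permutation p = 0.159). For oclnb minus oclnl it was 0.05 ± 0.332 cycles (SE, permutation p = 0.886), with a 95% interval of -0.62 to 0.71. Over the 5 diets the permutation p was 0.381 for oclnl minus oclc, 0.418 for oclnb minus oclc and 0.827 for oclnb minus oclnl. These are 3 pairs of genes, and their p-values are unadjusted.

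**Figure D5:**
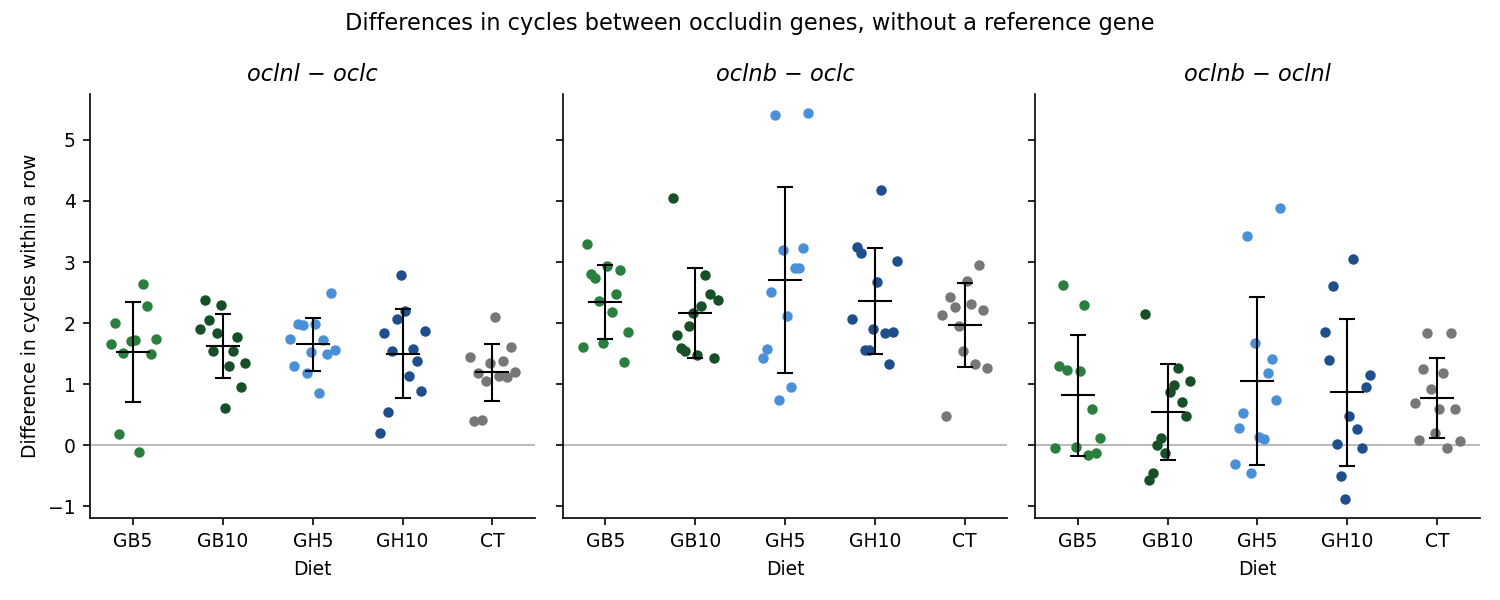
Difference in cycles between 2 occludins of the same row (points) by diet, with the mean and SD in black and a line at 0. The oclnl minus oclc means of the 4 supplemented diets lie between 1.50 and 1.65, above the CT mean of 1.20, and the points overlap.

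Among the occludins oclnb had the largest SD between fish, which rested on few rows. The SD within diets of the log2 ratio was 0.676 for oclnl, 0.845 for oclnb and 0.619 for oclc, the 8th, 6th and 9th of the 14 genes from the largest. In raw cycles it was 0.587, 0.766 and 0.424. Without rows far from their diet median the SD of the log2 ratio was 0.664 for oclnl and 0.617 for oclnb, and deviations of oclnb and oclnl gave a sign-flip permutation p of 0.455 with all rows. Mean absolute deviations from the diet median in cycles were 0.495 for oclnb and 0.319 for oclc (difference 0.18 ± 0.082 SE, sign-flip permutation p = 0.0345), and on the log2 ratio the same pair had a permutation p of 0.242. Without rows far from their diet median, this p was 0.623 on the log2 ratio. The other pairs had permutation p from 0.147 to 0.613.

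Part of the spread of each ratio was that of EF1a (2). The variance of EF1a (2) within diets was 33.8% of that of the log2 ratio for oclnl, 21.1% for oclnb and 39.3% for oclc. Row 10 of GB5 had the highest EF1a (2) cycle, 19.7. Its deposited ratio was the highest of GB5 for each gene, 1.20 for oclnl, 1.34 for oclnb and 2.58 for oclc. For oclnl, the ratios recomputed for rows 3 and 8 were higher, 2.07 and 2.57. The cycles of row 10, 25.9 for oclnl and 26.5 for oclnb, equalled or lay near the GB5 medians of 25.9 and 26.5. Its oclc cycle of 23.6 was the second lowest of GB5. The spread of the log2 ratio over diets gave a permutation p of 0.107 for oclnl, 0.220 for oclnb and 0.272 for oclc, and 14.3% of the 14 genes passed that test. For oclnl the SD of log2 values was 0.378 in GH5 (n = 12) and 0.481 in GB5 (n = 9). In the other diets it ran from 0.669 to 0.848 (n = 12 each). The GB5 value leaves out the 2 cycles without a deposited ratio. Over all 11 GB5 cycles, the SD of raw oclnl cycles was 0.753, the largest of any diet. It was 0.751 in GH10 and 0.367 in GH5. With the recomputed ratios, the SD of the linear GB5 ratio was 0.736 (n = 11), against 0.241 without them (n = 9). The narrow spread of GB5 thus held only for the deposited ratios.

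Centred on diet means, the cycles of oclnl and oclc varied together weakly between rows, at the unadjusted threshold only, and those of oclnb with neither. Pearson's r was 0.315 for oclnl and oclc (Spearman's rho 0.277, n = 59, permutation p = 0.0201 and 0.0401, 0.181 and 0.361 adjusted over 9 relations). It was 0.334 without the 2 rows farthest from the oclnl median, and within single diets it ran from 0.153 in GB5 to 0.501 in GH5, with 0.334 in GB10, 0.346 in GH10 and 0.416 in CT. For oclnb, r was -0.157 with oclnl (n = 59, permutation p = 0.191) and -0.203 with oclc (n = 60, permutation p = 0.153). Without rows 4 and 12 of GH5, which are the 2 farthest, r of oclnb with oclc was -0.123.

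The ratios of the genes were more alike than their cycles, and all of them hold EF1a (2). Over the rows with both ratios, r of log2 ratios was 0.677 for oclnl and oclc, where r of their cycles was 0.390 (n = 57). For oclnl and oclnb it was 0.176 on ratios and -0.149 on cycles (n = 57), and for oclnb and oclc 0.189 on ratios and -0.203 on cycles (n = 60). These values are a description and were not tested.

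Neither list of eef1a cycles ran clearly with the occludins. With EF1a (2), r was -0.150 for oclnl, 0.039 for oclnb and -0.158 for oclc, and with EF1a it was 0.174, 0.060 and 0.043. The unadjusted permutation p was between 0.221 and 0.767 for these 6 relations. For comparison, r of the other 11 target genes with EF1a was above 0 in 11 of 11, from 0.037 to 0.432, and with EF1a (2) in 3 of 11, from -0.311 to 0.224. For the occludins it was above 0 in 3 of 3 with EF1a and in 1 of 3 with EF1a (2).

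Of the 11 other target genes, those with cycles most alike to oclnl were cd4, the T helper cell co-receptor (r = 0.235, n = 59), and cldn15 (r = 0.152, n = 58). For oclnb they were cldn4l (r = 0.348, n = 60) and cldn24 (r = 0.078, n = 60), both claudins. For oclc they were cldn4, a barrier-forming claudin in mammals (r = 0.346, n = 60), and cd4 (r = 0.227, n = 60). These values assume that a row of the occludin blocks is the same fish as that row of the other genes.

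The 7 claudins of the same fish give the setting in the tight junction. Their median difference of supplemented fish from CT was 0.02 on the log2 scale, with a range of -0.23 to 0.45, where that of the 3 occludins was -0.49 and that of all 14 genes was -0.01. All 3 occludins were below CT, as were 3 of 7 claudins and 8 of 14 genes. In the pooled comparison 0 of 7 claudins and 1 of 3 occludins passed the test, and in that of the 5 diets 1 claudin, cldn4l, and 0 occludins. Each of these tests was passed by 7.14% of the 14 genes, which is 1 gene. Adjusted over the 14 genes by Benjamini-Hochberg, the permutation p was 0.266 for oclnl and 0.544 for cldn4l. These counts therefore do not set the families apart. In raw cycles the supplemented fish were later than CT in 2 of 3 occludins, 2 of 7 claudins and 5 of 14 genes. The occludin ratios use EF1a (2) and those of the claudins EF1a, so the 2 families were not normalised to the same list. With EF1a, the pooled difference from CT was -0.34 for oclnl (permutation p = 0.0977) and -0.33 for oclnb (permutation p = 0.232). For oclc it was 0.10 (permutation p = 0.588), so with the list of the claudins oclc lay above CT and no occludin passed the test. In whole tissue, fewer cells of a type and less RNA per cell cannot be told apart.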

How the data were processed

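The authors deposited 1 quantification cycle (log2 scale, not normalized) for each fish, from 2 wells, of 14 target genes and of 2 lists of eef1a. The ratio deposited beside them was computed by the authors by the ΔΔCT method, relative to eef1a and to the mean of CT, after they had removed outliers. In the column of CT the cycles stand among gene names as text and were read as numbers. The value 0 marked a missing cycle, of which oclnl had 1. The software behind the cycles is not given in the sources used here. All columns of diets were mapped to a sample. The authors' table of fold changes holds comparisons between groups and was not used.

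The members and the lists were chosen with earlier results of these data known. The occludins and eef1a were named throughout, with the 2 other genes most alike to each in cycles. Further genes were named only where a call fell on them.

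Log2 of the deposited ratio was compared between diets by two-sided permutation tests (100000 resamples, fixed seed), on the F statistic over 5 diets, the difference of pooled supplemented fish from CT, the terms of a 2 x 2 model, and the 10 pairs of diets, with the largest standardized difference as the adjusted p. The threshold of the permutation p was 0.05 per gene, as in the article, with Benjamini-Hochberg adjustment over the 14 genes beside it. Differences between occludins of 1 row and their deviations were tested by flipping signs. The p-values of the 3 pairs of genes were not adjusted, although this had been planned. The 95% intervals use the t distribution. Alternatives were the linear ratio, ranks, EF1a, the mean of the other targets without igm, raw cycles, all deposited cycles, removal of rows over 3.5 robust SDs (1.4826 times the median absolute deviation) from the diet median, rows with all 3 occludins, and each fish left out in turn. The F statistic over 5 diets, the pooled difference, the correlation and the sign-flip test were tried on simulated data with known answers. The dose term was tried only on data without a dose difference. The ingredient and interaction terms, the pairs of diets and the deviations from the diet median were not tried. With 12 fish in a diet and no values of the single wells, the technical error of a cycle is unknown. The tools were matplotlib 3.10.9, pandas 2.3.3, scipy 1.17.1 and numpy 2.4.6, under Python 3.11.15.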

Additional observations from a re-analysis of the deposited data

Results flagged for a closer look

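In GB5, the oclnl ratio of row 10 was 1.20, and the nearest of the other 8 fish had 0.658. The gap was 0.639 of the range, above Dixon's 95% value of 0.493 for 9 fish, and on the log2 scale it was 0.490, below that value. About 1 in 20 groups is expected to pass such a test by chance. Of the occludin groups, only this one was small enough for the critical values used, so the others were not screened. Row 10 is the highest only among the deposited ratios, since those recomputed for rows 3 and 8 of GB5 are 2.07 and 2.57. Its EF1a (2) cycle, 19.7, is the highest of the list, and its oclnl cycle of 25.9 is the median of GB5. Without it the GB5 mean was 0.526 ± 0.095 (SD, n = 8), against 1.00 ± 0.459 in CT (SD, n = 12), and the pooled difference of oclnl from CT was -0.54 (permutation p = 0.0152).

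The cycles of oclnl without a deposited ratio, in rows 3 and 8 of GB5, give ratios of 2.07 and 2.57 when recomputed with EF1a (2), above the highest CT ratio of 1.75. Their oclnl cycles are 24.3 and 24.2, and the oclc cycles of the same rows are 24.1 and 24.3.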

How the results depend on the processing

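Over 42 results, 204 alternative values do not leave out single fish. Of these, 167 kept their side of the threshold, and their direction where they have one. Another 4 lost the threshold, 8 passed it, and 25 changed sign, all of the last with p above 0.05. The F statistic, the spread over diets and the lowest p over pairs of diets have no direction. Some of the 167 could not change, as the setting used the same rows. This was so with all deposited cycles for oclnb and oclc. It was also so with rows that hold every occludin for oclnl, oclnl minus oclc and oclnb minus oclnl. No row was far from its diet median for oclnb minus oclnl and oclnb minus oclc. The 167 thus overstate stability. The values below are permutation p-values, and causes were not tested. The pooled oclnl difference lost its call with EF1a (0.0977), the mean of the other targets (0.124), raw cycles (0.232) and all deposited cycles (0.0715). Signs changed with EF1a for the oclnl interaction (0.436) and the oclc pooled difference (0.588), ingredient (0.569), dose (0.294) and interaction (0.313). They changed with the mean of the other targets for oclc pooled (0.574), ingredient (0.673) and dose (0.805), and with raw cycles for the oclnl interaction (0.415) and oclc pooled (0.253), ingredient (0.919) and interaction (0.886). They changed with all deposited cycles for oclnl ingredient (0.561), dose (0.918) and interaction (0.664), and with the linear ratio for the oclnb interaction (0.408) and oclc dose (0.920).

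On ranks, the pooled oclnb difference passed (0.0496), as did oclnl minus oclc (0.0141), and oclnb minus oclnl changed sign (0.762). Rows far from their diet median were left out in another setting (1 for oclnl, 4 for oclnb, 2 for oclc). The spread over diets then passed for oclnl (0.0366) and oclc (0.00534), where with all rows the permutation p was 0.107 and 0.272. This setting removes rows by the same deviations that the spread test compares, so neither pass shows a difference in spread. The other target genes were not tested this way. In the same setting oclnl minus oclc passed over 5 diets (0.0274) and pooled (0.00332). Signs changed there for oclnb dose (0.894) and interaction (0.716), oclc ingredient (0.908) and the spread of oclnb against oclnl (0.600). In raw cycles the spread of oclnb against oclc passed (0.0345), and the spread of oclnl over diets did not (0.610). Without the 2 late GH5 rows, signs changed for oclnb dose (0.949) and interaction (0.312), and with only rows that hold a deposited oclnl ratio oclnl minus oclc passed (0.0112) and oclnb minus oclnl changed sign (0.940). Both settings were chosen after seeing the data. The oclnb ingredient difference, 0.39 on the log2 scale, was 0.18 with EF1a.

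Leaving out single fish, the pooled difference gave 0.00630 to 0.0562 for oclnl, 0.0451 to 0.201 for oclnb and 0.441 to 0.971 for oclc. The ingredient p of oclnl ran from 0.464 to 0.994, the interaction p from 0.381 to 0.992 for oclnl, 0.647 to 0.998 for oclnb and 0.514 to 0.983 for oclc, and the dose p of oclc from 0.593 to 0.999. The lowest adjusted p over the pairs of diets stayed above 0.05 for each occludin with the linear ratio, EF1a, raw cycles and all deposited cycles, from 0.0664 to 0.970. Diets were compared without pairing, because each was fed to different fish in its own tanks. Only genes of the same row were compared as pairs.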
